A study of Mus musculus with 22 samples.

Results

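The 59 genes described here encode synaptic adhesion molecules and axon guidance cues and receptors, and E2F3a occupancy at them was measured by CUT&RUN in the mouse nucleus accumbens (NAc), a striatal region of the reward circuit. They were taken by name from a list, and each was matched to RefSeq, so they make up 59 of the 21900 protein-coding genes of GRCm38.p6 (mm10). The animals were wild-type C57BL/6J mice of both sexes, injected in the home cage with cocaine at 20 mg/kg or with saline on 7 days. The labels give 7 cocaine E2F3a libraries (2 female, 5 male) and 4 saline E2F3a libraries (2 female, 2 male), all from nuclei of bilateral NAc punches, with no age and no statement on pooling of animals. In CUT&RUN an antibody brings a nuclease to a chromatin protein, and the DNA it releases is sequenced. The assay gives no transcript levels, so the tissue could not be checked against marker genes here, and whether any gene changed in expression was not measured.

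Synapses form and hold through pairs of surface proteins, with neurexins and some receptor tyrosine phosphatases on the sending side and neuroligins, LRRTM proteins and calsyntenins on the receiving side. Cadherins, protocadherins, contactins and teneurins sort axons to their partners, and Slits, netrins, ephrins and semaphorins steer growing axons through receptors such as Robo, Dcc, Unc5 and Eph proteins. E2F3a is a product of E2f3, a transcription factor gene best known for driving genes of the cell cycle and DNA replication. E2F proteins bind GC-rich elements close to transcription starts.

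The files hold 3 kinds of value for these genes. The authors called 1 list of peaks per treatment on libraries pooled over both sexes, with 3467 cocaine peaks and 725 saline peaks, so the lists carry no spread between replicates and a gene in 1 list and not in the other has no test. A further table lists 956 sites that the authors found to differ between treatments, 480 lower and 476 higher after cocaine, and gives 10 normalized counts per site, 6 from cocaine and 4 from saline libraries. These values carry no names, so cocaine 1 to 6 and saline 1 to 4 below follow the table's order, and their sex and which labelled cocaine library is absent are not known. A single read was worth 0.641 to 2.21 normalized counts after cocaine and 0.384 to 1.88 after saline. The listed sites held a median of 13 to 25 reads per cocaine library and 14 to 48 per saline library. No values of the IgG control libraries were analysed here.

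E2F3a peaks were found at 20 of the 59 genes (33.9%) in the cocaine list and at 4 (6.78%) in the saline list, counting peaks in the gene body or within 1 kb of it. Among all protein-coding genes the shares were 9.79% in the cocaine list and 1.85% in the saline list. The adhesion and guidance genes are long, with a median of 589.0 kb and a range of 6.02 kb to 2.27 Mb, against a median of 17.1 kb for all protein-coding genes, and a longer gene offers more room for a peak. At the shares seen in other protein-coding genes of the same length class, 19.9 of the 59 genes would hold a cocaine peak and 3.5 a saline peak, which is close to the 20 and 4 observed. Per megabase of gene, the 59 genes held 0.635 cocaine peaks and 0.0907 saline peaks, and other genes held 2.21 and 0.392. These figures are not matched for length, and cocaine peaks per megabase fell with length in both sets. By length class they were 12.3 at these genes and 4.8 at others under 50 kb, and 2.22 and 1.67 at 50 to 200 kb. They were 1.19 and 0.897 at 200 to 500 kb, 0.55 and 0.744 at 500 kb to 1 Mb, and 0.477 and 0.618 at 1 Mb or more.

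Listed sites gave a different count. The authors' deposited table assigned 18 sites to 16 of the 57 autosomal adhesion and guidance genes (28.1%), all 18 with an authors' adjusted p below 0.05, against 3.03% of all autosomal protein-coding genes. The table holds autosomal sites, so Tenm1 and Nlgn3, which lie on chromosome X, could not be in it. A site lower after cocaine was assigned to 9 genes (15.8%, background 1.96%) and a site higher after cocaine to 9 genes (15.8%, background 1.12%), and Csmd3 and Ctnna2 had 1 of each. The same length classes of other genes would give 8.38 genes with a site, 5.81 with a lower site and 3.3 with a higher site. With sites overlapping the gene body or within 1 kb of it in place of the authors' assignment, 11 genes had a site, 6 a lower and 5 a higher one, and the length classes would give 7.63, 6.68 and 2.43. These comparisons are descriptions and carry no test, since the genes were chosen with results of these data known. In the counts by overlap, the Lrrtm1 site counts for both Lrrtm1 and Ctnna2. The lower sites of Clstn1, Magi2, Nrxn2, Slit2 and Robo1 lay in those genes, and the remaining gene with a lower site holds one that the authors assigned elsewhere.

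**Figure D1:**
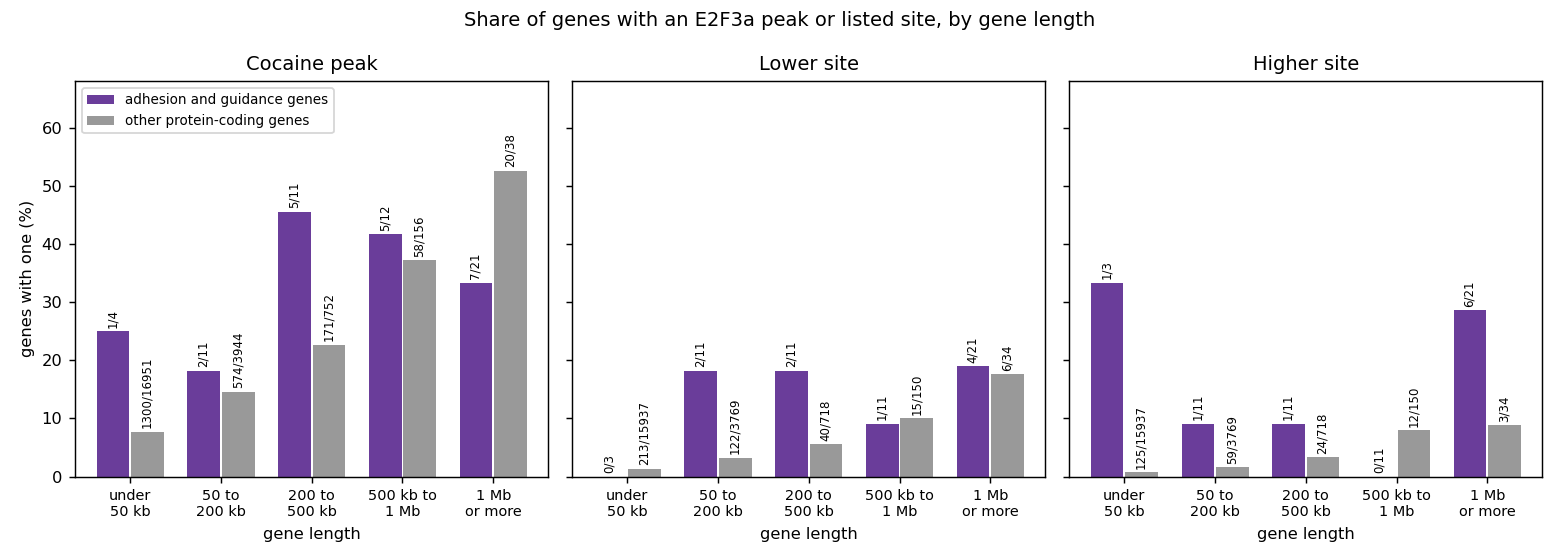
Share of adhesion and guidance genes (purple) and of other protein-coding genes (grey) with a cocaine peak, a lower listed site or a higher listed site, by gene length. Numbers above bars are genes with one over genes in the class (autosomal genes for sites). Among genes of 1 Mb or more, 7 of 21 adhesion and guidance genes (33.3%) and 20 of 38 other genes (52.6%) held a cocaine peak, while 6 of 21 (28.6%) and 3 of 34 (8.82%) had a higher site.

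The length classes did not all point one way. Among genes of 200 to 500 kb, 5 of 11 adhesion and guidance genes (45.5%) held a cocaine peak, against 22.7% of 752 other genes. Among those of 500 kb to 1 Mb the shares were 41.7% of 12 adhesion and guidance genes and 37.2% of 156 other genes, and among those of 1 Mb or more they were 33.3% of 21 adhesion and guidance genes and 52.6% of 38 other genes. For listed sites of either direction the order was different, with 38.1% of 21 adhesion and guidance genes and 23.5% of 34 other genes at 1 Mb or more, but 9.09% of 11 adhesion and guidance genes and 17.3% of 150 other genes at 500 kb to 1 Mb.

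Most of the cocaine peaks lay inside these genes and away from their starts. Of the 28 cocaine peaks, 6 (21.4%) had their summit within 1 kb of a gene end, each time the 5′ end, against 52.3% of gene and peak pairs at other genes. Among genes of at least 200 kb the shares were 12.5% of 24 peaks at these genes and 13.1% of 314 pairs at other genes. The median fold enrichment, the authors' ratio of signal to the peak caller's background, was 4.62 for the 28 peaks and 5.17 for 1981 peaks at other genes. All 4 saline peaks overlapped a cocaine peak of the same gene. Another protein-coding gene, Tmem256, lay within 1 kb of the peaks at Nlgn2, and no other peak of these genes had a second protein-coding gene that close.

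**Figure D2:**
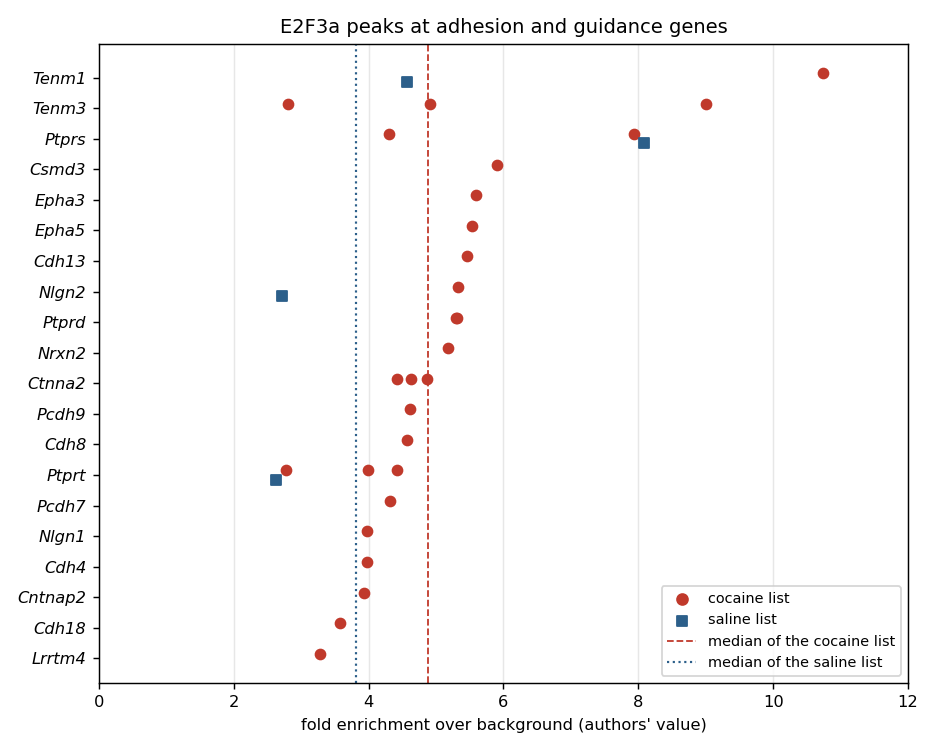
Fold enrichment over background (authors' value, horizontal axis) of each peak at the 20 adhesion and guidance genes with 1 in the cocaine list (red circles), and of the 4 saline peaks (blue squares). Dashed and dotted lines are the medians of the whole cocaine list (4.88) and the whole saline list (3.82). Tenm1 at 10.74 and Tenm3 at 9.0 were highest in the cocaine list and Ptprs at 8.08 in the saline list; folds of the lists are not compared with each other, as the lists were called separately.

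Promoter sequences were available for 45 of the 59 genes, as windows of 250 bases before to 50 bases after a RefSeq start in GRCm38.p6, and the windows that a cocaine peak overlapped are shown here because they are the sequences near a start of these genes that E2F3a peaks reached. The start itself lay under the peak at the 5′ end of Ptprs, and 28 to 117 bp outside the nearest cocaine peak in the other 4 windows. A cocaine peak overlapped 5 of 62 windows (8.06%), at Cdh8, Ctnna2, Nlgn2 and Ptprs (2 windows), against 4.6% of 21263 windows of all protein-coding genes. A saline peak overlapped 2 of them (3.23%), at Nlgn2 and Ptprs, against 0.729%. The letters GGCGC and GCGCC, which are reverse complements of each other and are taken here as a short core of the E2F element, are in capitals. Of the 4 forms of the full element given below, only TTTGGCGC holds these letters. All windows are on the minus strand and are written 5′ to 3′.
Cdh8, start within the gene, chr8:99416422-99416721: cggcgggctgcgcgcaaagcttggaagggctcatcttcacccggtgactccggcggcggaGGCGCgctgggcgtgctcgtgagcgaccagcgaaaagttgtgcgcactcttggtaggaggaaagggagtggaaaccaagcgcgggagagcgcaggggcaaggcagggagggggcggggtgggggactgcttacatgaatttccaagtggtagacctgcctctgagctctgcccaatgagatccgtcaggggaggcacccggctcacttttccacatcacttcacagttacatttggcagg
Ctnna2, chr6:77979618-77979917: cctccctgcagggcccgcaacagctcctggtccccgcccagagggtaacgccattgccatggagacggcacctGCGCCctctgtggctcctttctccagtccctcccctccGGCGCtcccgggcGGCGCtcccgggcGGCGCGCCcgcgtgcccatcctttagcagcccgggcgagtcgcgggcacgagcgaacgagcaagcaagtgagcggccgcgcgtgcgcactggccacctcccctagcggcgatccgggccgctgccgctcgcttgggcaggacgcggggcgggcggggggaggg
Nlgn2, chr11:69837735-69838034: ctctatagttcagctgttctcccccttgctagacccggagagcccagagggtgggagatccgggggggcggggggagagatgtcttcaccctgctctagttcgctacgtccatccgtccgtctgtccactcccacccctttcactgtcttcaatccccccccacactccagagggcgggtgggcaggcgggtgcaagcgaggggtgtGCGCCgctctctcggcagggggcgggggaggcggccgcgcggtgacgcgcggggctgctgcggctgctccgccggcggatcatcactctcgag
Ptprs, start within the gene, chr17:56462172-56462471: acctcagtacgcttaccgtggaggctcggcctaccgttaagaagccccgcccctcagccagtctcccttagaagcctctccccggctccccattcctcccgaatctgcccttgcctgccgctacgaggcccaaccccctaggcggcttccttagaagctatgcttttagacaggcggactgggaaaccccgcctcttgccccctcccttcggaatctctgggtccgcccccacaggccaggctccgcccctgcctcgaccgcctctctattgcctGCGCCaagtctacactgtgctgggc
Ptprs, 5′ end of the gene, chr17:56476431-56476730: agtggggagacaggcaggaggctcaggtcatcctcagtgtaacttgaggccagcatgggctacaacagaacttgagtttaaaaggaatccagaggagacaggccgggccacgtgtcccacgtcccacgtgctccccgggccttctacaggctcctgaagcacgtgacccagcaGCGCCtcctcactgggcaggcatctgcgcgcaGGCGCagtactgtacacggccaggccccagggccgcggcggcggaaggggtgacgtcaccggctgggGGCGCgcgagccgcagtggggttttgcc

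Each of these 5 windows held the core at least once, with 5 matches in Ctnna2, 3 in the Ptprs window at the gene's 5′ end and 1 in each of the others. The core was in 26 of the 62 windows of these genes (41.9%), in 46.7% of all windows and in 70.6% of the 978 windows that any cocaine peak overlapped. In Ctnna2 neighbouring matches overlap, in the run of capitals of more than 5 letters. The full element, written as TTTCCCGC, TTTCGCGC, TTTGCCGC or TTTGGCGC on either strand, was in none of the 5, in 8.38% of windows that a cocaine peak overlapped and in 2.85% of all windows. Among the 62 windows it was in 1 (1.61%), a window of Magi1 with no peak. The peak covered 292 of the 300 bases of the Ptprs window at the 5′ end, 179 bases at Nlgn2, 134 bases of the internal Ptprs window, 22 bases at Cdh8 and 1 base at Ctnna2, whose window sits between 2 cocaine peaks. The capitals lay under the cocaine peak only in the Ptprs window at the 5′ end. In the other windows shown, every core match lay outside the bases that the peak covered. None of the 62 windows held a listed site; the Clstn1 window lies downstream of the site described below.

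Among the neurexins and receptor tyrosine phosphatases, 4 of 5 held cocaine peaks, 8 in all, and 3 had a listed site. Of all protein-coding genes 9.79% held a cocaine peak, and 3.03% of autosomal ones had a listed site. Among other genes of 50 to 200 kb the shares were 14.6% and 4.72%, and among those of 1 Mb or more 52.6% and 23.5%. These 5 genes all fall in those length classes. Ptprs, a receptor phosphatase that binds heparan sulfate proteoglycans and postsynaptic partners, was marked at its 5′ end in both lists (cocaine peak at chromosome 17, 56475961 to 56476722, 7.94-fold, and saline peak at 56475827 to 56476436, 8.08-fold). That saline peak ranked 19 of 725 and the cocaine peak 340 of 3467. A second cocaine peak of Ptprs (4.3-fold) overlapped the internal window whose sequence is given above and ended 117 bp upstream of its start. Nrxn2, one of the neurexins, held a cocaine peak across its 5′ end (chromosome 19, 6418421 to 6418810, 5.17-fold). Ptprd, a phosphatase of the same subfamily as Ptprs, held 2 cocaine peaks deep in the gene (5.31-fold and 5.30-fold). Ptprt, a phosphatase that binds its own kind on the facing cell, held 3 (up to 4.42-fold), 1 of them matched by a saline peak of 2.62-fold. Nrxn3 had neither a peak nor a listed site.

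The listed sites of the neurexins and receptor tyrosine phosphatases went in both directions. The Nrxn2 site (chromosome 19, 6488502 to 6489500) carried 6.24 to 14.1 normalized counts in the 6 cocaine libraries, with a median of 9.35, against 24.99, 16.5, 22.3 and 18.8 in saline 1 to 4. Every cocaine library was below every saline library. The mean was 10.3 ± 3.04 after cocaine and 20.6 ± 3.73 after saline (SD, n = 6 and 4 libraries), and the authors' deposited table gives a log2 fold change of -1.01 with an adjusted p of 0.00094. The authors' annotation calls this a promoter site of a transcript that starts within the gene. It lay 70.2 kb from the 5′ end of the RefSeq gene and 44.2 kb from its 3′ end, away from the peak at the 5′ end. In bulk tissue, fewer cells with E2F3a at a site and less E2F3a per cell cannot be told apart, here or at the sites below.

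At Ptprd (chromosome 4, 76213502 to 76215400, an intron) the cocaine libraries held 12.5 to 146 normalized counts, with a median of 34.8, against 21.7, 24.8, 18.4 and 43.2 in saline 1 to 4. Only cocaine 5 (146) and cocaine 6 (88.9) exceeded the highest saline library, and the groups overlapped. The log2 fold change in the authors' deposited table is 1.09 (adjusted p = 0.0027), while the log2 ratio of means was 1.06 with all libraries, 0.54 without cocaine 5 and 0.03 without cocaine 5 and 6. The Ptprt site (chromosome 2, 162595502 to 162596500, first intron) held 15.4 to 49.6 normalized counts in the cocaine libraries, with a median of 27.2, against 16.3, 15.9, 13.8 and 18.8 in the saline libraries. The highest cocaine values were again those of cocaine 5 and 6, and 4 of 6 cocaine libraries exceeded all saline libraries. The authors' deposited table gives Ptprt a log2 fold change of 0.87 (adjusted p = 0.0016). The Ptprd site overlapped a cocaine peak, and the Ptprt site overlapped peaks of both lists.

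Of the 9 postsynaptic genes, 3 held a cocaine peak and 2 others had a listed site. Among all protein-coding genes 9.79% held a cocaine peak, and 3.03% of autosomal ones had a listed site. The share of other genes with a cocaine peak ran from 7.67% under 50 kb to 52.6% at 1 Mb or more. For a listed site it ran from 2.11% to 23.5%. Nlgn2, the neuroligin of inhibitory synapses, held a peak upstream of its 5′ end in both lists (cocaine peak at chromosome 11, 69837856 to 69838352, 5.32-fold, and saline peak at 69837871 to 69838300, 2.71-fold). Nlgn1, the neuroligin of excitatory synapses, and Lrrtm4, an LRRTM protein that binds heparan sulfate proteoglycans, held intragenic cocaine peaks of 3.98-fold and 3.28-fold. Nlgn3, Lrrtm2, Lrrtm3 and Clstn2 had neither a peak nor a listed site.

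Clstn1, which encodes a calsyntenin found in postsynaptic membranes and on axonal transport vesicles, had the largest fall among the 18 sites in the authors' deposited table, with a log2 fold change of -2.64 (adjusted p = 0.0002). The site (chromosome 4, 149584302 to 149585500) overlaps the start of the RefSeq gene and ends 1.0 kb upstream of the transcript that the authors assigned. It held 0 to 8.34 normalized counts in the cocaine libraries, with a median of 1.00, against 14.1, 14.0, 13.8 and 22.55 in saline 1 to 4. All 6 cocaine libraries were below all 4 saline libraries, and 3 of the 6 were at 0. The means were 2.59 ± 3.47 after cocaine and 16.1 ± 4.29 after saline (SD, n = 6 and 4 libraries), from 19 reads in all after cocaine and 96 after saline. The authors' enrichment at the site was 0.41 after cocaine and 7.18 after saline, although neither peak list has a peak there.

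Lrrtm1, a leucine-rich repeat protein that binds neurexins, was the site with the clearest separation upwards. Its site (chromosome 6, 77253002 to 77254000, an intron of Lrrtm1) held 21.1 to 32.5 normalized counts in the cocaine libraries, with a median of 25.7, against 4.89, 12.7, 16.9 and 3.76 in saline 1 to 4. All cocaine libraries were above all saline libraries. The mean was 26.3 ± 4.88 after cocaine and 9.56 ± 6.30 after saline (SD, n = 6 and 4 libraries), and the authors' deposited table gives a log2 fold change of 1.46 (adjusted p = 0.0024). Lrrtm1 lies within the body of Ctnna2, so the site falls inside both genes.

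The teneurins, large proteins that bind latrophilins across the synapse, gave the highest peaks of these genes. Tenm1 held the peak with the highest fold enrichment of the 59 genes (chromosome X, 42638513 to 42639830, 10.74-fold, rank 91 of 3467 in the cocaine list), 111.5 kb from the nearest end of the gene. The saline list has a peak with the same summit there (42638871 to 42639723, 4.57-fold, rank 200 of 725). Tenm3 held 3 cocaine peaks, of 9.0-fold (chromosome 8, 48246915 to 48247945, rank 221), 4.91-fold and 2.81-fold, and no saline peak. Tenm2 and Tenm4 had neither a peak nor a listed site.

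The listed Tenm3 site lay 50.7 kb outside the gene, beyond its 5′ end (chromosome 8, 49573502 to 49574600), and overlapped a cocaine peak there. It held 11.5 to 97.4 normalized counts in the cocaine libraries, with a median of 32.5, against 10.3, 18.4, 16.5 and 22.55 in saline 1 to 4. Of the cocaine libraries, 5 exceeded the highest saline library, and cocaine 1 lay among the saline values. The log2 fold change of the authors' deposited table is 1.23 (adjusted p = 0.00024). The log2 ratio of means was 1.18 with all libraries, 0.70 without cocaine 5 and 0.53 without cocaine 5 and 6.

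Csmd3, one of the large CUB and Sushi domain proteins, had an intragenic cocaine peak (5.90-fold) and 2 listed sites in opposite directions, both outside the gene. At the lower site (chromosome 15, 47167202 to 47168400), 412.2 kb from the gene, the cocaine libraries held 2.21 to 16.6 normalized counts, with a median of 5.43, against 17.4, 20.4, 18.8 and 22.55 in saline 1 to 4. The groups did not overlap, and the authors' deposited table gives a log2 fold change of -1.48 (adjusted p = 0.00068). At the higher site (chromosome 15, 49287602 to 49288600), 495.0 kb from the gene on its other side, the values were 35.4 to 110.6 with a median of 57.1 in the cocaine libraries, against 41.8, 50.2, 39.9 and 56.4 in the saline libraries. Those groups overlapped, cocaine 5 and 6 again being highest. The authors' deposited table gives it a log2 fold change of 0.53 (adjusted p = 0.0035), and the log2 ratio of means was 0.52 with all libraries, 0.33 without cocaine 5 and 0.04 without cocaine 5 and 6.

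Lrp1b, a very large relative of the LDL receptor, had a higher site in an intron (chromosome 2, 41895902 to 41897100) with 26 to 57.5 normalized counts in the cocaine libraries, a median of 39.9, and 29.9, 23.5, 19.2 and 18.8 in saline 1 to 4. Here 5 of 6 cocaine libraries exceeded the highest saline library. The log2 fold change in the authors' deposited table is 0.80 (adjusted p = 0.0035). Csmd1 and Csmd2 had neither a peak nor a listed site.

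The contactins, immunoglobulin proteins anchored in the axonal membrane, and Cntnap2 made up 6 genes, of which 1 held a cocaine peak and 1 had a listed site. Of protein-coding genes of any length 9.79% held a cocaine peak, and 3.03% of autosomal ones had a listed site. All 6 genes exceed 200 kb. Among other genes of that length the shares by length class were 22.7% to 52.6% for a cocaine peak and 8.64% to 23.5% for a listed site. Cntnap2, which clusters potassium channels beside the node of Ranvier and is among the longest genes of the genome, held 1 intragenic cocaine peak (3.93-fold). Cntn1 had a higher site 57.5 kb outside the gene (chromosome 15, 91992702 to 91993700) that overlapped a cocaine peak, with 13.5 to 73.0 normalized counts in the cocaine libraries, a median of 22.9, and 24.99, 17.8, 15.4 and 20.7 in saline 1 to 4. Cocaine 5 (73.0) and cocaine 6 (53.0) stood above the others, cocaine 1 (25.01) was level with saline 1 (24.99), and the other 3 cocaine libraries lay within or below the saline values. The log2 fold change in the authors' deposited table is 0.77 (adjusted p = 0.0038). The log2 ratio of means was 0.74 with all libraries, 0.37 without cocaine 5 and -0.06 without cocaine 5 and 6. Cntn3, Cntn4, Cntn5 and Cntn6 had neither a peak nor a listed site.

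The intracellular partners of these adhesion proteins were marked at Ctnna2 and Magi2. Ctnna2 encodes the neuronal alpha-catenin, which ties cadherins to actin, and held 3 cocaine peaks, of 4.86-fold and 4.42-fold on either side of its promoter window and 4.63-fold within the gene. Its lower site lay 364.1 kb outside the gene (chromosome 6, 76516502 to 76517500) and held 3.42 to 12.8 normalized counts in the cocaine libraries, with a median of 6.74, against 26.1, 16.5, 20.7 and 18.8 in saline 1 to 4. The groups did not overlap there, and the authors' deposited table gives a log2 fold change of -1.42 (adjusted p = 0.0012). Its higher site, 82.5 kb outside the gene and on the same side (chromosome 6, 76797202 to 76799100), held 37.4 to 111.1 in the cocaine libraries, with a median of 50.2, against 31.5, 42.0, 28.0 and 30.1 in the saline libraries. That site overlapped peaks of both lists, 4 of 6 cocaine libraries exceeded all saline libraries, and the authors' deposited table gives a log2 fold change of 0.88 (adjusted p = 0.00024).

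Magi2, a scaffold that gathers receptors and neuroligins under the membrane, had a lower site at the far end of the gene (chromosome 5, 20702102 to 20703100). It held 0 to 11.1 normalized counts in the cocaine libraries, with a median of 6.37, against 24.99, 14.6, 20.7 and 18.8 in saline 1 to 4. All cocaine libraries were below all saline libraries, and 1 was at 0. The means were 6.11 ± 4.75 after cocaine and 19.8 ± 4.31 after saline (SD, n = 6 and 4 libraries), and the authors' deposited table gives a log2 fold change of -1.69 (adjusted p = 0.00042). The authors' annotation calls it a promoter site, of a transcript of 1135 bp, while the centre of the site lies 2.2 kb from the 3′ end of the RefSeq gene and 1483.2 kb from its 5′ end. Magi1 had neither a peak nor a listed site.

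Of the 12 cadherins and protocadherins, 6 held a cocaine peak, 1 each, and none a saline peak. Among all protein-coding genes 9.79% held a cocaine peak and 1.85% a saline peak. All 6 exceed 200 kb, as do Cdh12 and Pcdh15 without a peak, while Cdh9, Cdh10, Pcdh10 and Pcdh17 are of 50 to 200 kb. Among genes outside the 59 the share with a cocaine peak was 14.6% at 50 to 200 kb. It was 22.7% to 52.6% in the longer classes. The peak of Cdh13, a cadherin anchored by lipid and without a cytoplasmic part, was highest (5.46-fold), followed by Pcdh9 (4.62-fold), Cdh8 (4.57-fold), Pcdh7 (4.32-fold), Cdh4 (3.97-fold) and Cdh18 (3.57-fold). The Pcdh7 peak lay upstream of the gene, with its summit 793 bp from the 5′ end, and the other 5 lay within genes. Cdh10, Cdh12, Pcdh10, Pcdh15 and Pcdh17 had neither a peak nor a listed site.

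A listed site was assigned to 2 of the 12 genes, against 3.03% of all autosomal protein-coding genes. The share was 4.72% of other autosomal genes of 50 to 200 kb and 8.64% to 23.5% in the longer classes. Both listed cadherin sites were intergenic. The lower site of Cdh18 lay 447.0 kb from the gene (chromosome 15, 23924502 to 23925600) and held 0 to 13.0 normalized counts in the cocaine libraries, with a median of 6.02, against 19.6, 20.4, 11.9 and 22.55 in saline 1 to 4. Of the cocaine libraries, 5 were below the lowest saline library, and cocaine 4 was not. The authors' deposited table gives a log2 fold change of -1.58 (adjusted p = 0.00061). The higher site of Cdh9 lay 994.4 kb from that gene (chromosome 15, 15732802 to 15734200) and held 10.3 to 37.2 in the cocaine libraries, with a median of 35.4, against 13.6, 17.8, 17.3 and 22.55 in the saline libraries. It differed from the other higher sites in that cocaine 6 was the lowest of all 10 libraries, while the other 5 cocaine libraries exceeded every saline library. The authors' deposited table gives Cdh9 a log2 fold change of 0.80 (adjusted p = 0.00068) and an enrichment of 4.80 after cocaine and 1.56 after saline.

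Of the 14 guidance genes, 2 held a cocaine peak, against 9.79% of protein-coding genes of any length. The share was 14.6% of other genes of 50 to 200 kb and 22.7% to 52.6% in the longer classes, where most of the 14 fall. Their 3 listed sites were all lower after cocaine, as were 480 of all 956 listed sites. A listed site was assigned to 4.72% of other autosomal genes of 50 to 200 kb and to 8.64% to 23.5% in the longer classes. Epha3 and Epha5, receptors for ephrin-A ligands, each held 1 intragenic cocaine peak (5.59-fold and 5.54-fold). The lower sites belonged to Epha5, to Slit2, a secreted repellent, and to Robo1, its receptor. No saline peak was found at any of the 14, and Robo2, Slit1, Slit3, the netrin receptor genes Dcc, Unc5c and Unc5d, Epha4, Epha6, Epha7 and Sema3a had neither a peak nor a listed site.

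The Slit2 site (chromosome 5, 48136402 to 48137500, an intron) held 5.77 to 15.4 normalized counts in the cocaine libraries, with a median of 6.44, against 13.6, 14.6, 16.9 and 24.4 in saline 1 to 4. All cocaine libraries but cocaine 6 were below the lowest saline library, and the authors' deposited table gives a log2 fold change of -1.12 (adjusted p = 0.0036). The Robo1 site (chromosome 16, 72951602 to 72953000, an intron) held 4.02 to 23.9 in the cocaine libraries, with a median of 21.2, against 36.9, 50.2, 23.8 and 35.7 in saline 1 to 4. There cocaine 2 (23.92) just exceeded saline 3 (23.79), and the other 5 cocaine libraries were below all saline libraries. The authors' deposited table gives Robo1 a log2 fold change of -1.10 (adjusted p = 0.014), the largest adjusted p of the 18 sites. The Epha5 site, 135.1 kb outside the gene (chromosome 5, 83918502 to 83919700), held 0 to 13.3 in the cocaine libraries, with a median of 10.3, against 15.8, 29.3, 10.7 and 39.5 in saline 1 to 4. Its groups overlapped, with 3 cocaine libraries below the lowest saline library, and the log2 fold change in the authors' deposited table is -1.39 (adjusted p = 0.0014).

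The neuregulins Nrg1 and Nrg3, ligands of ErbB receptors, had neither a peak nor a listed site, although each gene exceeds 1 Mb. In all, 31 of the 59 genes had neither. A cocaine peak and a listed site were both present at 8 genes, Cdh18, Csmd3, Ctnna2, Epha5, Nrxn2, Ptprd, Ptprt and Tenm3. The shares of other genes with both or with neither were not computed, so these counts have no background here.

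**Figure D3:**
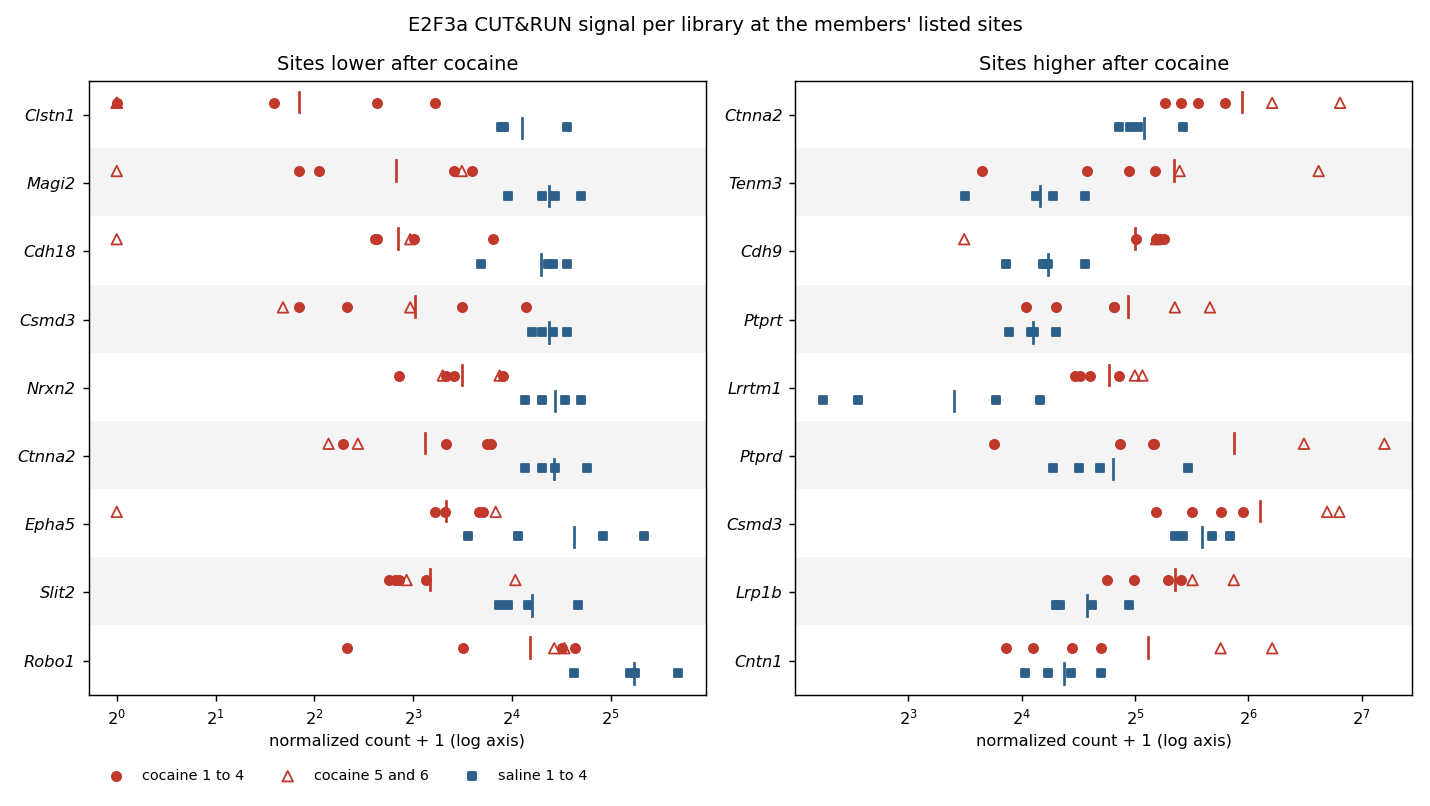
Normalized count plus 1 (horizontal log axis) in each library at the 9 lower and 9 higher listed sites of adhesion and guidance genes. Red circles are cocaine 1 to 4, open red triangles cocaine 5 and 6, blue squares saline 1 to 4, and vertical ticks the group means. The groups do not overlap at Clstn1, Magi2, Csmd3, Nrxn2 and Ctnna2 among the lower sites and at Lrrtm1 among the higher sites.

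Lower and higher sites of these genes differed in how the libraries separated. All cocaine libraries were below all saline libraries at 5 of the 9 lower sites, as at 47.5% of the 480 lower listed sites, and all cocaine libraries were above all saline libraries at 1 of the 9 higher sites, as at 11.3% of the 476 higher listed sites. limma on log2(normalized count + 1), fitted to and adjusted over all 956 listed sites, passed 7 of the 9 lower sites (60.6% of all lower listed sites) and 1 of the 9 higher sites, Lrrtm1 (13.0% of all higher listed sites). The limma adjusted p was 0.044 at each of these 8 sites, 0.071 at Epha5 and 0.052 at Robo1. The authors chose the sites on the same libraries, so these calls describe the separation and are no independent evidence. By limma, 0 of the 18 sites passed when cocaine 3, cocaine 4 or any 1 of the saline libraries was left out, with 8 to 11 sites at an unadjusted p below 0.05, and 4 passed without cocaine 1. With all libraries, a quasi-Poisson test of recovered reads, adjusted over all listed sites, passed 10 of the 18. These were 7 of the 9 lower sites, against 338 of all 480 lower listed sites, and 3 of the 9 higher sites, against 80 of all 476.

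The limma estimates give the size of the lower sites with their error. On the log2(normalized count + 1) scale the difference was -2.83 ± 0.62 at Clstn1, -1.96 ± 0.60 at Magi2, -1.75 ± 0.57 at Cdh18 and -1.63 ± 0.46 at the lower site of Csmd3 (SE). It was -1.45 ± 0.41 at the lower site of Ctnna2, -1.08 ± 0.36 at Slit2 and -0.97 ± 0.34 at Nrxn2. At the lower sites that did not pass it was -1.51 ± 0.66 at Epha5 and -1.20 ± 0.46 at Robo1. At Lrrtm1 it was 1.56 ± 0.41. Among the other 8 higher sites the estimate ran from 0.41 ± 0.39 at Csmd3 to 0.94 ± 0.48 at Tenm3. At the 6 sites where the groups did not overlap, the exact two-sided permutation test of the mean gave p = 0.00952, the smallest that 6 against 4 libraries allow. That value restates the separation by which these sites were picked and is no further evidence.

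Cocaine 5 and cocaine 6 moved with the higher sites. They held the 2 highest of the 10 values at 8 of the 9 higher sites (88.9%), all but Cdh9, against 71.2% of all higher listed sites. Relative to the saline mean, the median log2 ratio over the 9 higher sites was 0.35, 0.18, 0.71, 0.72, 1.30 and 1.38 in cocaine 1 to 6. Over the 9 lower sites it was -0.97, -1.41, -1.28, -1.47, -1.99 and -1.32 in cocaine 1 to 6. A read was worth more in cocaine 5 (2.21 normalized counts) and cocaine 6 (1.71) than in cocaine 1 to 4 (0.641 to 1.30), and the part of this in the result was not tested. Without cocaine 5 and 6 the mean was at least 1.5-fold lower than in saline at 9 of 9 lower sites, and at least 1.5-fold higher at 2 of 9 higher sites, Cdh9 and Lrrtm1. Over all listed sites those shares were 89.0% of lower sites and 32.6% of higher sites.

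**Figure D4:**
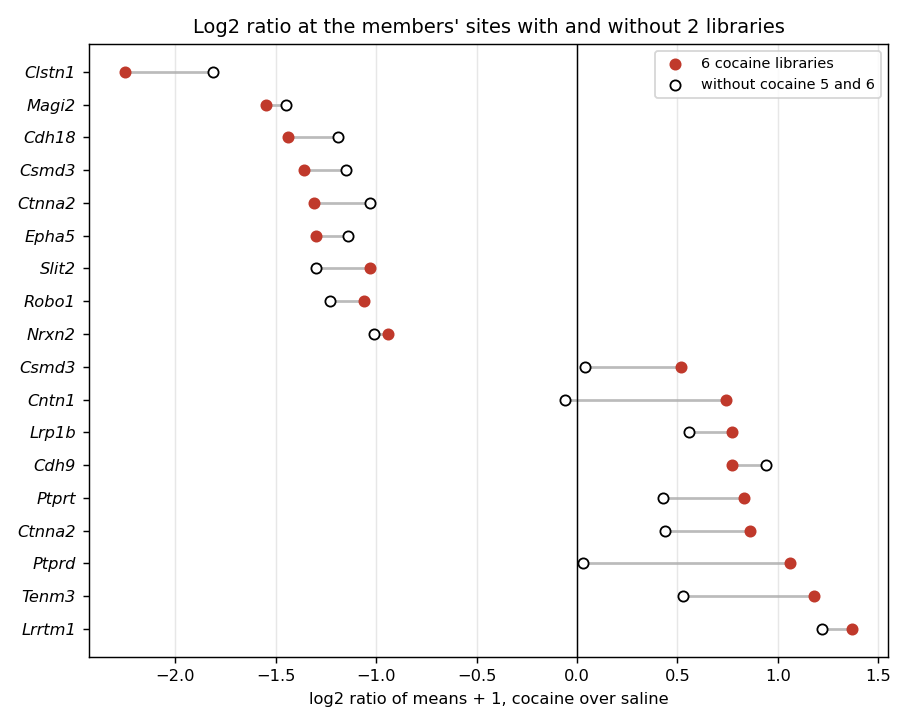
Log2 ratio of mean normalized count plus 1, cocaine over saline (horizontal axis), at the 18 sites with all 6 cocaine libraries (filled) and without cocaine 5 and 6 (open). The lower sites lie between -1.81 and -1.01 without the 2 libraries, while Cntn1 is at -0.06, Ptprd at 0.03 and the higher site of Csmd3 at 0.04; Lrrtm1 (1.22) and Cdh9 (0.94) are highest.

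Peaks overlapped higher sites of these genes and no lower site, a difference that was not tested. Of the 9 higher sites, 6 overlapped a cocaine peak (66.7%, against 29.2% of all higher listed sites) and 3 a saline peak, at Ctnna2, Ptprt and Csmd3. None of the 9 lower sites overlapped a peak of either list, against 7.71% of all lower listed sites for the cocaine list and 3.75% for the saline list. The authors' enrichment was lower after cocaine at 9 of 9 lower sites, with medians of 1.01 after cocaine and 3.02 after saline, as it was at 437 of all 480 lower listed sites, with medians of 1.14 after cocaine and 2.58 after saline. It was higher after cocaine at 8 of 9 higher sites, with medians of 1.09 after cocaine and 0.81 after saline, as at 421 of all 476 higher listed sites, with medians of 1.08 after cocaine and 0.78 after saline. Intergenic sites made up 4 of 9 lower sites, against 21.9% of all lower listed sites, and 5 of 9 higher sites, against 45.6% of all higher listed sites. Promoter annotations were given to 3 of 9 lower sites, against 46.5% of all lower listed sites, and to 0 of 9 higher sites, against 22.7% of all higher listed sites. Another listed site lay within 100 kb of 0 of 9 lower sites, against 13.8% of all lower listed sites, and of 1 of 9 higher sites, that of Cntn1 (85.4 kb), against 53.2% of all higher listed sites.

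A second list held 124 other adhesion and guidance genes, with a median length of 123.3 kb. A cocaine peak was found at 16 of them (12.9%), a saline peak at 2 (1.61%, Dpysl2 and Lsamp) and a listed site at 5 of the 117 autosomal ones (4.27%). Over all protein-coding genes these shares were 9.79%, 1.85% and, for autosomal genes, 3.03%. Among genes of 50 to 200 kb outside the 59, the class of that median, they were 14.6%, 2.76% and 4.72%. No test of the difference from the 59 genes was made, and the lengths differ. The lower sites belonged to the ephrin ligand genes Efna3 (log2 fold change -0.98) and Efnb2 (-1.94) in the authors' deposited table. The higher sites belonged to Plxna4, a semaphorin receptor (0.91), Sema5b, a semaphorin (1.24), and Lrrc4c, which encodes the netrin-G ligand NGL-1 (3 sites, 0.77 to 0.89). The Efnb2 site lay 1341063 bp, and the Lrrc4c sites 1194713 to 1199213 bp, from the start of the transcript that the authors assigned. The 3 Lrrc4c sites lay close together (chromosome 2, 98662802 to 98668300). They held up to 3505.5 ± 2486.4 normalized counts after cocaine and 1979.8 ± 248.1 after saline at the same site (SD, n = 6 and 4 libraries). At the listed sites of the 59 genes the saline mean was at most 47.1, at the higher site of Csmd3. The log2 ratio of the Lrrc4c sites was 0.04 to 0.26 without cocaine 5 and 6. Whether counts of this size reflect E2F3a was not tested, and Lrrc4c is among the 5 genes counted with a listed site.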

How the data were processed

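The members and gene lists were chosen with earlier results of these data known. Coordinates are mm10, per the submitters' processing notes, while the aligner, the peak caller's settings and any use of IgG were not given in the sources used here. Each deposited peak list has a score, a fold enrichment (a ratio over background) and −log10 p and q values from the authors, with q up to 0.01. Of the deposited site table, the log2 fold change, the mean signal, the p-value with its adjusted form and the enrichment ratio are the authors' own. Normalized counts of single libraries were read from the cells in which the authors joined them, and were whole multiples of 1 step in each library (100.0% of values up to 20 reads, within 0.1 step). Reads were recovered with that step. The 2 IgG libraries with conflicting labels entered nothing.

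Peaks overlapping a RefSeq GRCm38.p6 gene or within 1 kb of it were counted, and sites were taken by the authors' gene assignment. Length classes had edges at 50, 200 and 500 kb and 1 Mb. Library values were tested with limma 3.58.1 (R 4.3.3), a pseudocount of 1 and Benjamini-Hochberg adjustment over all 956 sites. limma and a quasi-Poisson test (statsmodels 0.14.6), the second added after the data were seen, were checked on simulated data. The labels do not say that libraries came from separate animals, so p-values measure the spread between libraries. Every gene to which the authors assigned a site is named with its library values, and every gene with a peak with its highest. A gene said to have no listed site has none by the authors' assignment. Promoter windows on chromosome 18 were left out. Summit sequences were not printed, as no genome was used here, so promoter windows that peaks overlapped stand in for them.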

Additional observations from a re-analysis of the deposited data

Results flagged for a closer look

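At 5 of the 36 groups of library values tested (18 sites, cocaine and saline), 1 library stood apart from the rest of its group by Dixon's criterion at 95%, and chance flags about 1 in 20 groups. At the higher site of Cdh9, cocaine 6 was lowest at 10.26 normalized counts. At the lower site of Clstn1, saline 4 was highest at 22.55. At the Slit2 site, cocaine 6 was highest of its group at 15.39. At the Epha5 site, cocaine 6 was at 0.0. At the higher site of Tenm3, cocaine 5 was highest at 97.35. The causes were not tested.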

How the results depend on the processing

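Counting sites in promoters and gene bodies alone, by the authors' annotation, left 9 genes with a site in place of 16, with 5 lower in place of 9 and 4 higher in place of 9. The count of genes with a higher site was 3 when the log2 fold change had to reach 1. It was 5 with sites overlapping the gene body or within 1 kb, where Lrrtm1 and Ctnna2 share a site. With at least 1.5-fold without cocaine 5 and 6 it was 2. The log2 ratio at Cntn1 was -0.06 without those libraries, a change of sign that was the 1 reversal among the 18 sites, and the causes were not tested. Of the 18 sites, limma passed 8 with all libraries, 0 to 9 when 1 library was left out, and 13 had an unadjusted p below 0.05 by the exact permutation test. No permutation count over all listed sites is given here. Over all 956 listed sites limma passed 353 with all libraries and 0 to 410 with 1 left out. Counts of genes with a peak stayed within 1.5 times under a narrower or wider window, a stricter q and the summit alone, at 16 to 21 for cocaine and 3 to 4 for saline. The planned edgeR test of recovered reads was not run, and the quasi-Poisson test of the same reads took its place. It passed 10 of the 18 sites and 418 of all 956 listed sites. No paired analysis was possible because the library values carry no replicate numbers. At 13 to 25 reads per site in a cocaine library, a change of few reads moves a ratio, and lists of unequal length limit what an absent saline peak shows.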
